A study of Mus musculus with 16 samples.

Results

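Accessible chromatin at the genes Bach2, Tcf7 and Lef1 was described from a single list of open chromatin regions called over ATAC-seq samples of mouse regulatory T cells (Treg cells, which restrain other immune cells). Members were the regions that overlapped 1 of 3 windows of mm9, placed on chr4:32280000-32720000 for Bach2, chr11:52030000-52140000 for Tcf7 and chr3:130770000-130970000 for Lef1. The windows held 66, 29 and 31 regions, 126 of the 75363 on the list. The gene spans used below are approximate, at 32.33 to 32.67 Mb for Bach2, 52.07 to 52.10 Mb for Tcf7 and 130.81 to 130.93 Mb for Lef1, and are known only to the nearest 10 kb. A region within a few kb of a span's end can therefore not be placed inside or outside the gene. The regions named as nearest an end are those nearest the rounded end.

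The series holds 16 samples of sorted CD4+CD25+ cells from 8 C57BL/6 mice, in 8 groups of 2. The list is given for the series as a whole, and how each sample entered it is not stated in the sources used here. Tissue samples came from epididymal (visceral) adipose tissue of 2 mice, injured hindlimb muscle of 2 mice and colonic lamina propria of 4 mice, and each mouse also gave a spleen sample. The colon samples and their spleens form 2 groups each, titled Nrp1p and Nrp1n. The kind of muscle injury and the ages of the mice are not stated. The list carries no value per sample or per region, so tissue was not compared with spleen here, the purity of the sort was not checked against marker genes, and no value below has a replicate error. Read depth is unknown, so the absence of a region does not show that the chromatin was closed.

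Bach2 encodes a transcriptional repressor of the BTB and bZIP type that restrains effector programmes in T cells. Tcf7 encodes TCF-1 and Lef1 encodes LEF-1, related HMG-box proteins that bind the same short DNA site and can pair with beta-catenin or with repressors of the Groucho/TLE family. All of them are known for high expression in naive and resting T cells, including the resting Treg cells of lymphoid organs, and for lower expression once T cells become effectors.

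Sequence of mm9 was not used here, so the open regions themselves are given by position. Promoter sequences of the 3 genes were read from RefSeq (GRCm38.p6, another build, whose positions cannot be set beside the mm9 positions). They are shown for the site letters of the factors that these same genes encode. The core of the TCF/LEF site was searched as CTTTGA and the site shared by AP-1 and BACH proteins as TGANTCA, on both strands, in the 300 bases from 250 before to 50 after each annotated start. The first sequence shows the 250 bases before the outermost annotated start of Lef1 (chr3:131110047-131110296, plus strand), with each CG pair in capitals. The next sequences show every match of the TCF/LEF core, in capitals, within 30 bases, read 5′ to 3′ on the gene's own strand (plus for both genes).
Lef1, before the outermost start: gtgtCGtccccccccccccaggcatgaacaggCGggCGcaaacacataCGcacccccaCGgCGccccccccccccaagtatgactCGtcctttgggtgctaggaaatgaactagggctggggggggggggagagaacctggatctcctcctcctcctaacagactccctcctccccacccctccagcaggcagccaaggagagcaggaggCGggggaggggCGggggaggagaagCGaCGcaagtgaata
Lef1, internal start, chr3:131156102-131156131: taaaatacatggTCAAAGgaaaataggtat
Lef1, internal start, chr3:131156162-131156191: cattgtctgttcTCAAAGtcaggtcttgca
Bach2, internal start, chr4:32417330-32417359: actgtgttgttcTCAAAGttgagtagagtt

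The table gave 4 promoters for Lef1, 1 for Bach2 and 2 for Tcf7. The TCF/LEF core stood in 2 of these 7 promoters, both at starts inside the gene, and in 5257 of all 32851 promoters. The only Bach2 promoter given was 1 of them, so no promoter at the 5′ end of Bach2 was searched for either motif. In the Lef1 promoter the matches began 180 and 120 bases before the start, and in the Bach2 promoter the match began 93 bases before it. All 3 matches read TCAAAG on the gene's strand, the reverse complement of the searched core. The AP-1 and BACH site stood in 0 of the 7 promoters and in 7.81% of all. The promoters of Tcf7 (45 and 17 CG pairs) held neither motif. The first 2 Lef1 promoters, which overlap, had 18 and 21 CG pairs, and the one with both matches had 5; the median of all promoters was 7. Among 15 other genes of resting T cells or of these factor families, 12 had promoters in the table. These were Foxo1, Klf2, Satb1, Id3, Il7r, Bcl6, Myb, Ctnnb1, Tcf7l1, Tcf7l2, Bach1 and Tle3, with 19 promoters in all. The TCF/LEF core stood in 1 of the 19, a promoter of Bcl6, and the AP-1 and BACH site in 0. A match is a run of letters and not a bound site, and 7 and 19 promoters are too few to set a share against the share of all.

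Open regions were dense at all 3 genes, and densest at Tcf7. The Tcf7 window had 264 regions per Mb, the Lef1 window 155 and the Bach2 window 150. The whole list averaged 28.6 per Mb over chromosomes 1 to 19 and X, and chromosomes 11, 3 and 4 averaged 45.7, 24.8 and 28.5. Density was thus 9.22 times the list's average at Tcf7, 5.42 times at Lef1 and 5.25 times at Bach2. Against its own chromosome, each window was between 5.27 times (Bach2) and 6.25 times (Lef1) as dense, with Tcf7 at 5.77 times, because chromosome 11 is itself rich in regions. Tcf7 stood above the other windows in all 5 alternatives run, but the order of Lef1 and Bach2 turned in 3 of them. Bases inside regions made up 5.96% of the Tcf7 window, 3.13% of the Bach2 window and 2.88% of the Lef1 window, and 0.577% over the whole list.

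The genome cut into stretches as long as each window gives the background for these counts. Of 5978 stretches of 440 kb, 0.703% held at least the 66 regions of the Bach2 window, and the fullest held 90. Of 23948 stretches of 110 kb, 0.188% held at least the 29 regions of the Tcf7 window, with 40 as the highest count. Of 13167 stretches of 200 kb, 1.98% held at least the 31 regions of the Lef1 window, and the highest count was 56. All of the windows lay in the sparse upper end of the distribution, and none held the most. Many stretches had no region at all (34.8%, 53.3% and 45.7% for the 3 lengths). Among stretches with at least 1 region, 1.08%, 0.403% and 3.65% held at least as many as the Bach2, Tcf7 and Lef1 windows. The medians of these stretches were 15, 5 and 8 regions, so that Bach2 held 4.40, Tcf7 5.80 and Lef1 3.88 times the median.

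**Figure D1:**
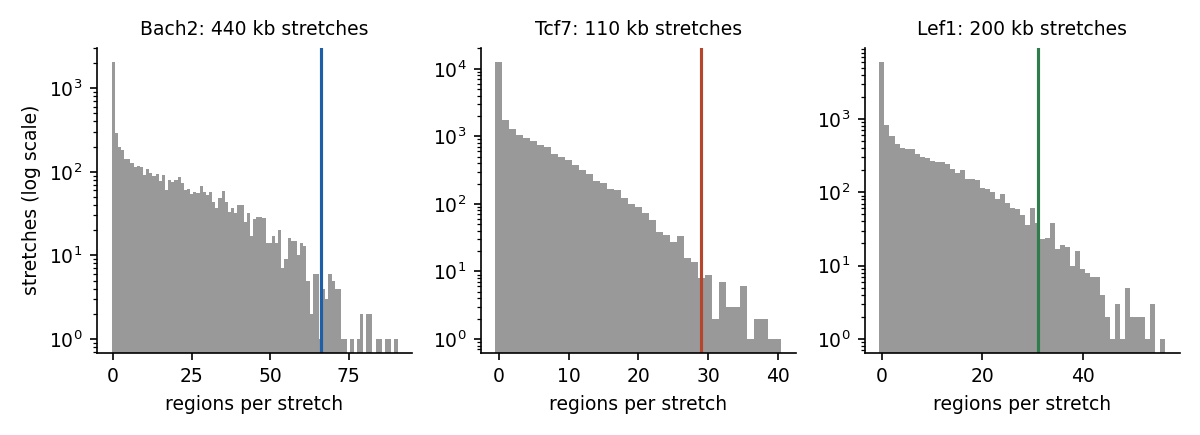
Number of stretches (vertical axis, log scale) by the number of regions they hold (horizontal axis), for the genome cut into stretches of 440 kb, 110 kb and 200 kb. The coloured lines mark the Bach2 window (66 regions), the Tcf7 window (29) and the Lef1 window (31), which lie in the thin upper tail of each distribution.

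At Bach2, 53 of the 66 regions lay within the gene span of 340 kb, 9 lay upstream and 4 downstream. They were concentrated toward the 5′ end. The 170 kb nearer the 5′ end held 38 regions and the 170 kb nearer the 3′ end held 15, or 224 against 88.2 per Mb. Cut into 5 equal parts of 68 kb in the direction of transcription, the span held 16, 13, 15, 2 and 7 regions. The drop came after the third part.

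Linked where neighbours were less than 12.5 kb apart, the regions at Bach2 formed a pair of long runs. The pair depends on that distance: at 25 kb the longest run had 53 regions, and at 5 kb it had 5. The longer of the pair had 27 regions over 102 kb (chr4:32418031-32519824), and the other 26 regions over 97.5 kb (chr4:32303543-32401004), beginning upstream of the span. A gap of 17026 bp parts them. Of the 24047 runs on the list, single regions included, 77 had at least 27 regions and 91 had at least 26. Both runs together held 53 of the 66 regions. Beyond them the gene had its longest stretch without a region, of 56.3 kb (chr4:32568868-32625141), or 12.8% of the window. A gap of 29.3 kb (chr4:32519825-32549079) came earlier, directly after the run of 27 regions. Only 2 single regions, 19391 bp apart, stood between these gaps. Toward the 3′ end followed a run of 2 regions (chr4:32625142-32632253) and one of 5 (chr4:32647318-32659368). The nearest protein-coding genes in the supplied gene table were Map3k7, a signalling kinase, upstream and Gja10, a gap junction protein, downstream.

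The first region of the Bach2 window was chr4:32303543-32303734, at -26.4 kb from the 5′ end of the span, and it opened a group of 5 regions in 10 kb. The region nearest the 5′ end was chr4:32326788-32327025, 238 bp wide, the last of 3 regions within 1477 bp. The region nearest the 3′ end was chr4:32673672-32673860, and the last of the window was chr4:32702205-32702398. The widest region of the window, of 414 bp, was chr4:32511280-32511693, deep inside the gene at 181.5 kb from the 5′ end. It opened the longest compact site of the window, with 3 regions in 1630 bp. The next widest were chr4:32367461-32367825 (365 bp) and chr4:32631896-32632253 (358 bp).

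**Figure D2:**
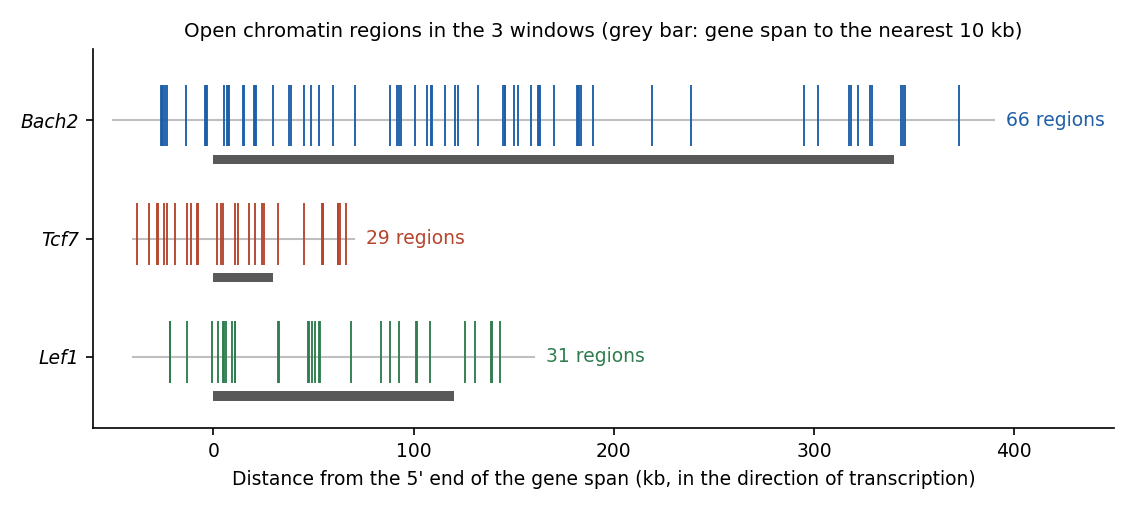
Position of every open region (vertical lines, drawn wider than to scale) in the Bach2, Tcf7 and Lef1 windows, by distance in kb from the 5′ end of the gene span (horizontal axis). The dark bars are the gene spans. Bach2 has 2 long runs of lines (at a link of 12.5 kb) and, further on, the 56.3 kb gap. The Tcf7 window has regions along its length, with a longest gap of 12.6 kb.

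Tcf7 is the shortest of the genes, and its regions were spread over the whole window. The gene runs on the minus strand. Its span of 30 kb held 9 regions (300 per Mb), the 40 kb upstream held 11 (275 per Mb) and the 40 kb downstream held 9 (225 per Mb). The 15 kb nearer the 5′ end held 5 regions and the 15 kb nearer the 3′ end held 4. None of the 11 bins of 10 kb was empty, whereas 15 of 44 bins were empty at Bach2, 5 of 20 at Lef1 and 84.4% over the whole list. The longest gap was 12.6 kb (chr11:52054940-52067573), on the downstream side. It is longer than a bin, so the absence of empty bins depends on where the bins start.

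The run that covers Tcf7 reached past the window. It had 33 regions over 107 kb (chr11:52067574-52174718), of which 21 lay inside the window, and 30 runs on the list had at least 33. Linked at 5 kb, the longest run here had 6 regions. The run of 33 regions went on upstream of the gene, toward Vdac1 (a mitochondrial outer membrane channel), the next protein-coding gene on that side in the supplied gene table. On the downstream side, Skp1 (a subunit of ubiquitin ligases) overlaps the end of Tcf7 in that table. The 40 kb downstream of the span still held 9 regions, and the density fell sharply only below the window. The 110 kb below the window (chr11:51920000-52030000) held 1 region, against 29 in the window and 16 in the 110 kb above it. Which gene the flanking regions serve was not tested.

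The widest regions around Tcf7 lay outside its span. The widest of all 126 was chr11:52054420-52054939, of 520 bp, 45.3 kb from the 5′ end of Tcf7 and downstream of the gene. The next, of 477 bp, was chr11:52045171-52045647, the middle of 3 regions within 977 bp. The third, chr11:52137929-52138283 (355 bp), was the last of the window, upstream at -38.1 kb. Within the span, the region nearest the 5′ end was chr11:52097886-52098052 (167 bp), and the widest region there had 266 bp. The region nearest the 3′ end was chr11:52067574-52067748 (175 bp), just downstream of the approximate span and within its rounding. The first of the window was chr11:52033911-52034099 (189 bp).

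At Lef1, 22 of the 31 regions lay within the span of 120 kb, 4 upstream and 5 downstream. As at Bach2, more of them stood toward the 5′ end: the 60 kb nearer that end held 15 (250 per Mb) and the 60 kb nearer the 3′ end held 7 (117 per Mb). The 5 equal parts of 24 kb held 7, 4, 5, 3 and 3 regions. The fullest 10 kb of the window (chr3:130810001-130820000), which adjoins the 5′ end, held 5 regions, a count that 0.522% of the list's bins of 10 kb reached.

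Linked at 12.5 kb, the longest run at Lef1 held 11 regions over 32973 bp (chr3:130788102-130821074) and crossed the 5′ end. Linked at 5 kb, the longest run had 8 regions at Lef1, 6 at Tcf7 and 5 at Bach2, and at 25 kb it had 33, 45 and 53. The order of the genes thus turns with the distance. At 25 kb the runs of Lef1 and Tcf7 reach beyond their windows, which hold 31 and 29 regions, so these counts are not of the windows alone. The run of 11 ended at the longest gap of the window, of 21.3 kb (chr3:130821075-130842384). A run of 2 regions (chr3:130842385-130842916) followed that gap. Further inside the gene came a compact run of 6 regions in 6.49 kb (chr3:130856950-130863442). This run held the widest region of the window, chr3:130860419-130860735, of 317 bp. Next came a single region (chr3:130878420-130878599). A further 6 regions spread over 24.4 kb (chr3:130893670-130918047), with the second widest, chr3:130911489-130911768 (280 bp). The last run of 5 regions (chr3:130935855-130953534) lay beyond the 3′ end, toward Hadh, a mitochondrial enzyme of fatty acid oxidation and the next protein-coding gene there.

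The region nearest the 5′ end of Lef1 was chr3:130808993-130809142 (150 bp), at -0.9 kb from it. The region nearest the 3′ end, chr3:130935855-130935948, was also the narrowest of all 126, at 94 bp. That is the lowest width over chromosomes 1 to 19 and X, and 1348 regions of the list have it. The first region of the window was chr3:130788102-130788251, which a single base parts from the next region. The last was chr3:130953277-130953534 (258 bp).

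**Figure D3:**
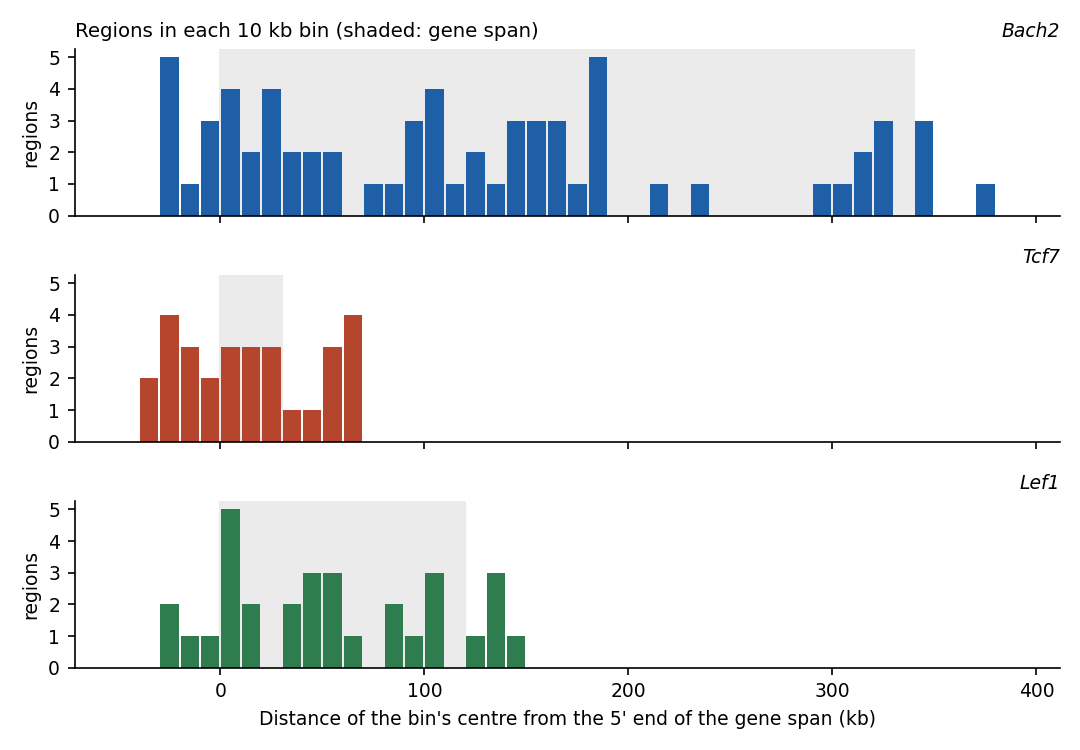
Regions in each 10 kb bin (vertical axis) by the distance of the bin's centre from the 5′ end of the gene span (horizontal axis, kb), with the span shaded. The Tcf7 window has no empty bin, and the fullest bins of Bach2 and Lef1 hold 5 regions.

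Regions of the windows had widths near those of the list and stood closer together. Median width was 193.5 bp at Bach2 (range 108 to 414 bp), 189 bp at Tcf7 (100 to 520 bp) and 180 bp at Lef1 (94 to 317 bp), and 191 bp over the list. Regions of 300 bp or more made up 4 of 66, 4 of 29 and 1 of 31, or 6.06%, 13.8% and 3.23%, and 6.32% of the list. These widths were not tested against each other, since regions of 1 locus are not replicates.

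The median gap between neighbours was 3565 bp at Bach2, 2587.5 bp at Tcf7 and 3052 bp at Lef1, each below the 5200.5 bp of the list. Gaps of 12.5 kb or more were 7 of 65 at Bach2, 1 of 28 at Tcf7 and 5 of 30 at Lef1, or 10.8%, 3.57% and 16.7%, and they were 31.9% on the list. Only gaps between regions of the same window were counted, whereas the list's gaps include those between distant genes. Fewer long gaps and lower medians thus follow in part from this and from the density above. The share of short gaps was near that of the list in all windows, with the lowest value at Tcf7. Gaps under 500 bp were 24.6%, 17.9% and 23.3% in the windows and 22.2% on the list.

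**Figure D4:**
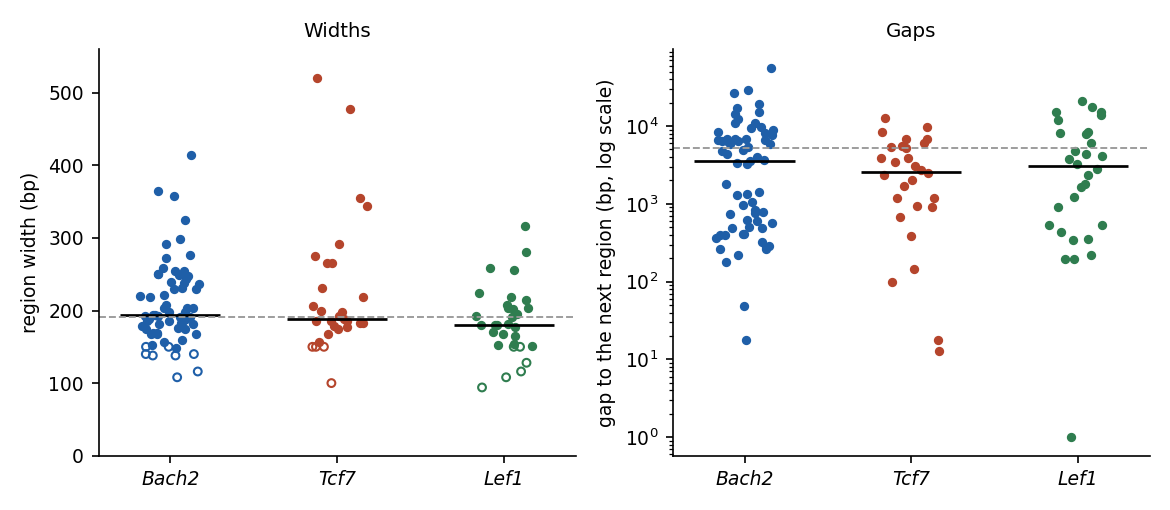
Width of each region (left, bp) and gap to the next region of the same window (right, bp, log scale) at Bach2, Tcf7 and Lef1. Black bars are medians, dashed lines the medians of the list (191 bp and 5200.5 bp), and open circles regions of the 12 widths that stand out over the list; gap medians lie below the dashed line in all 3 windows.

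Compact sites, taken as neighbours less than 500 bp apart, varied in make-up between the genes, a difference that was not tested. Bach2 had 7 sites of 3 regions and 2 of 2, and 41 single regions. Lef1 had 7 sites of 2 regions and none larger, and 17 single regions. Tcf7 had 1 site of 3, 3 of 2 and 20 single regions. The share of regions in such sites was 37.9% at Bach2, 31.0% at Tcf7 and 45.2% at Lef1, and 38.7% on the list. Of the 7 sites of 3 at Bach2, 1 lay upstream near -25.8 kb and 1 at -3.7 kb, and the others were inside the gene, the last at 182.1 kb. Whether such a site is 1 wide open element that was called in pieces, or several elements, cannot be told apart from positions alone.

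On this list 12 widths, all even and at most 150 bp, hold many more regions than the widths next to them. They made up 8 of 66 regions at Bach2 (12.1%, exact binomial 95% interval 5.38 to 22.5%), 4 of 29 at Tcf7 (13.8%, 3.89 to 31.7%) and 6 of 31 at Lef1 (19.4%, 7.45 to 37.5%). The list had 14.2%, which lies within each interval. The intervals cover counting error only and take regions as independent.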

How the data were processed

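The deposited list holds chromosome, start and end of each open chromatin region on mm9, in base pairs per the file header, with no score, count or sample column (0 columns were left unmapped). Per the submitters' processing notes, cutadapt 1.8.3, Bowtie2 2.2.4, SAMtools 1.3, Picard 1.130 and HOMER 4.6 were used, with no role or setting stated. How samples were pooled and regions called, which decides what is listed, is not given in the sources used here. Regions overlapping each window by 1 base or more were members. Starts were raised by 1 base. Chromosome length was the end of the last region. Stretches and 10 kb bins counted region centres on chromosomes 1 to 19 and X. A width stood out when it held over 5 times the median number at widths within 8 bp (taken as at least 10). Strand came from the RefSeq promoter table, and neighbouring genes from a GRCm38.p6 gene table. Positions of that gene table were used only within its own build and were not set beside the mm9 positions. The named regions were, per window, the 3 widest, the first and last, those nearest the span's ends, the longest run and the longest gap; other groups were picked after their values were seen. Counting steps passed 6 of 6 checks on made-up positions. Python 3.11.15, pandas 2.3.3 and scipy 1.17.1 were used. The windows, lists and rules were chosen with earlier results of these data known. A planned comparison of protein sequences was not run.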

Additional observations from a re-analysis of the deposited data

How the results depend on the processing

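No paired analysis was possible because samples have no values of their own in these data, so no replicate could be left out either, and the planned comparison of tissue with spleen was not run. Of 45 values under other settings, 31 stayed close to those reported and 14 moved. A count or density was close when it lay within 1.5 times of the reported value, and a share when it lay inside the exact binomial 95% interval. Some settings entered both as counts and as densities of the same window, so the 45 values are not independent. Several outcomes were also fixed by the setting, so the tally does not measure robustness. No region crossed a window's edge, so counting by region centre changed nothing. The 12 widths made up no more than 19.4% of any window's regions, too few for the limit of 1.5 times to be passed. Restricted to widths of at least the list's median, the count was 37 at Bach2, 14 at Tcf7 and 14 at Lef1, or 84.1, 127 and 70 per Mb, by construction. Among stretches with a region, 1.08%, 0.403% and 3.65% held at least as many as the Bach2, Tcf7 and Lef1 windows, since empty stretches were dropped. The longest run depended most on the link: 5 kb gave 5 regions at Bach2, 6 at Tcf7 and 8 at Lef1, and 25 kb gave 53, 45 and 33, so the order turned. At 25 kb the Tcf7 and Lef1 runs include regions beyond their windows. Linked at 12.5 kb and counted inside the window alone, an alternative chosen after seeing the data, the Tcf7 run had 21 regions. Tcf7 had the highest density in the 5 alternatives for density. Bach2 came above Lef1 with windows widened by 50 kb (146 against 137 per Mb), at median width or more, and without the 12 widths (132 against 125). Unknown depth and calling settings limit all counts.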

Other observations

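Stretches as long as each window on both of its sides were counted as well. Around Bach2, the 440 kb below the window held 22 regions and the 440 kb above it 36, against 66 inside. Around Lef1, the 200 kb below held 29 regions, nearly the 31 of the window, and the 200 kb above held 12. The lower side is upstream of Lef1, where Rpl34, a ribosomal protein gene, is the next protein-coding gene in the supplied table. Linked at 12.5 kb, the longest run at Lef1 did not reach into it: its 11 regions all lay inside the window. Around Tcf7 the sides held 1 and 16 regions. These stretches were chosen after the windows' values were seen, and nothing was tested on them.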
